A study of Mus musculus with 2 samples.

Results

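The genes described here encode 7 costimulatory molecules of T cells: the TNF receptor family members Tnfrsf4 (OX40), Tnfrsf9 (CD137), Tnfrsf18 (GITR) and Cd27, the CD28 family members Cd28 and Icos, and Cd40lg, the CD40 ligand of helper T cells. They were chosen by name, and all 7 were found once among the 32285 genes of the count matrices. Live CD45-positive cells had been sorted from liver tumours grown in C57/BL6 wild-type mice after orthotopic implantation of Hepa1-6 cells, a mouse hepatoma line; the tumours had been digested with collagenase IV and DNase and enriched with CD45 beads before the sort. Mice had been treated with anti-PD-1 antibody or with isotype control antibody (named IgG in the design text), and each group was sequenced as 1 library of 10x Genomics 3′ v2 chemistry. The number of mice in each library, their age, the dose and the time of treatment are not stated in the labels used. No difference between the antibodies could therefore be tested, every interval below covers counting error only, and antibody, tumour, mouse and library cannot be told apart.

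T cells need a signal from their antigen receptor and a costimulatory signal from the antigen-presenting cell. Naive T cells receive the latter through CD28, which binds CD80 and CD86. ICOS, OX40, CD137 and GITR appear or rise after activation and sustain survival, proliferation and cytokine output through PI3K or through TRAF adaptors and NF-kB. CD27 is carried by resting T cells too and is lost on terminal differentiation. Regulatory T cells, which restrain other T cells, carry much GITR, OX40, ICOS and CD137 in tumours, and several of these receptors are targets of agonist antibodies that are tried beside PD-1 blockade.

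Depth is given in unique molecular identifiers (UMIs), each a counted mRNA molecule. With anti-PD-1 there were 72148493 UMIs in 10149 barcodes, and with isotype antibody 67520433 in 9683. Filters left 9719 and 9263 cells of median depth 6308 and 6112 UMIs, and 140 barcodes were shared by the libraries. Ptprc, which encodes the sorted CD45, was detected in 76.7% and 75.3% of the kept cells. Cells were assigned to types by counts of marker genes (a gate), with no clustering. Monocytes and macrophages made up 52.4% and 49.6% of cells, neutrophils 25.9% and 29.0%, and gated T cells 6.06% (589 cells) and 5.28% (489 cells). T cells held 9.11% and 6.01% of all UMIs. In what follows, paired values are given in the order anti-PD-1, isotype, and levels are UMIs of a gene scaled to the gate's total (CPM, counts normalised to the same total), compared within a gene.

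The gated T cells were split by transcripts into CD4 T cells (181 and 191 cells, Cd4 without Foxp3), regulatory T cells (70 and 57, Foxp3), CD8 T cells (194 and 68, Cd8a or Cd8b1), T cells without CD4 or CD8 transcripts (81 and 98), gamma-delta T cells (32 and 46) and T cells with both CD4 and CD8 transcripts (31 and 29). The gate named last took all T cells with Cd8a or Cd8b1 that also held Cd4 or Foxp3. A transcript that the split did not use followed it. Ikzf2, which encodes the transcription factor Helios of regulatory T cells, stood at 473 and 429 CPM in the regulatory T gate against 68.8 and 69.9 CPM in the CD4 T gate. The T cells with both CD4 and CD8 transcripts had a median of 14487 UMIs in the anti-PD-1 library, more than any other T gate there. In the isotype library their median was 8125 UMIs. Of them 58.1% and 17.2% were cycling (at least 3 of 7 proliferation genes). The part of doublets in this gate was not tested, and the gate is described without comparison. Comparisons between the libraries were limited to 11 gates with at least 50 cells in each.

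**Figure D1:**
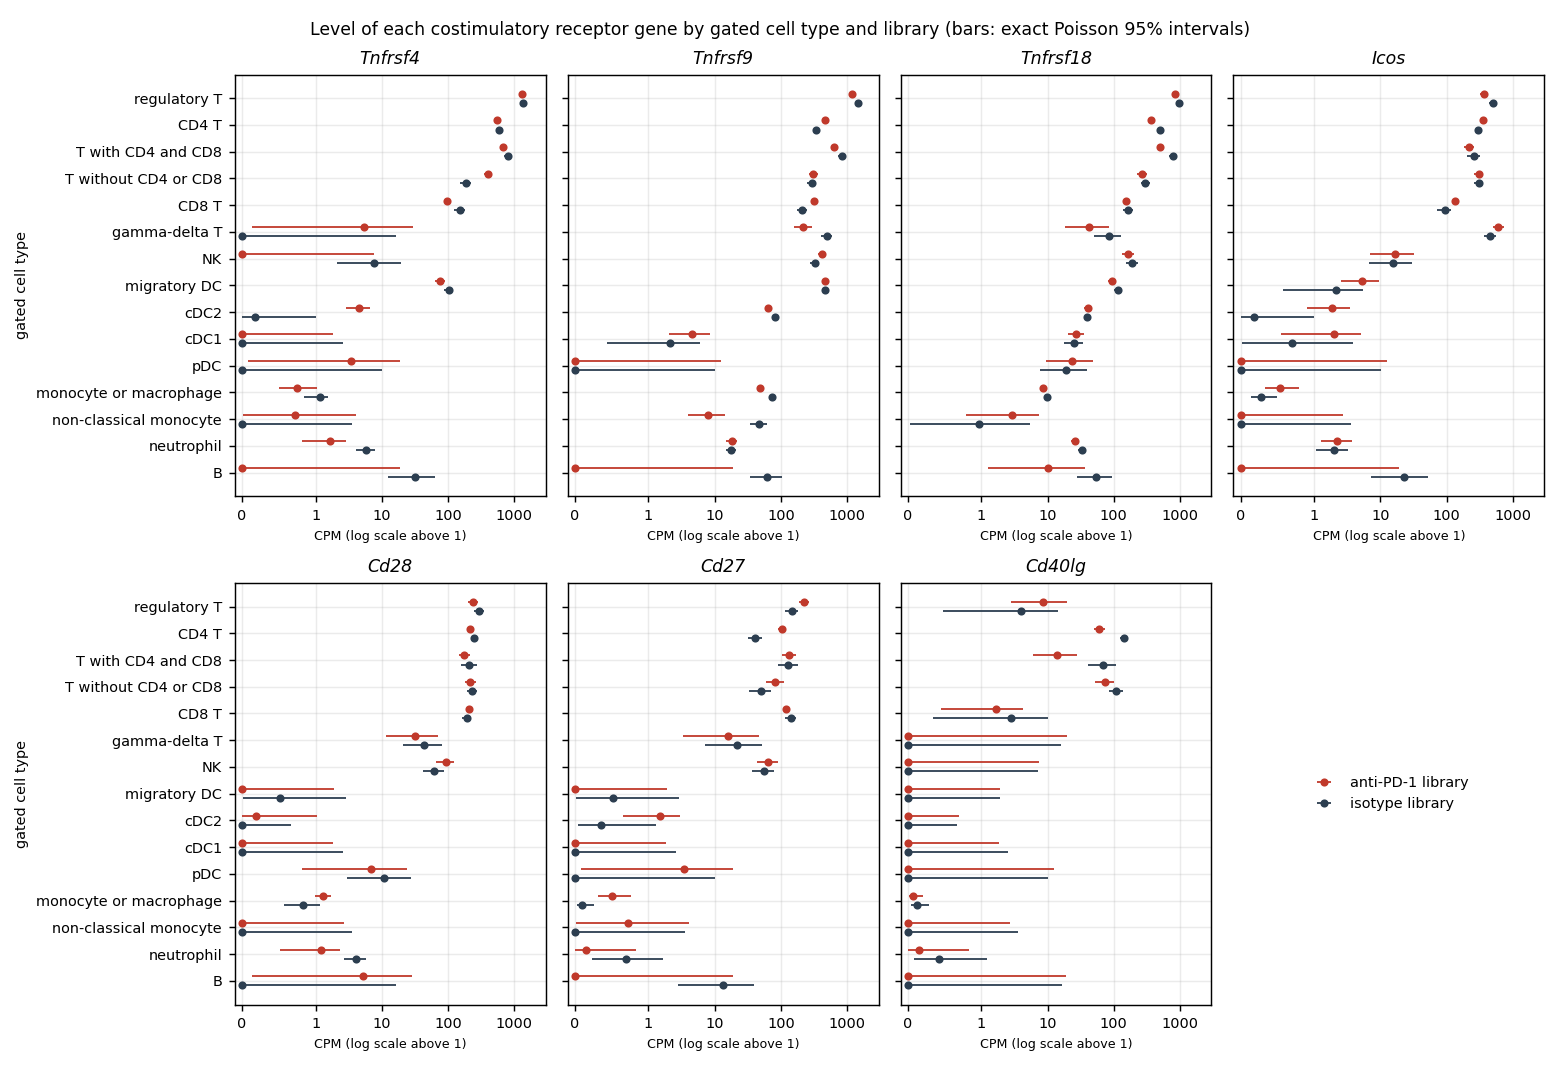
Level of each of the 7 genes (CPM, horizontal axis, linear below 1 and logarithmic above) in 15 gated cell types (vertical axis); red points are the anti-PD-1 library, dark points the isotype library, and bars are exact Poisson 95% intervals. Tnfrsf4, Tnfrsf9 and Tnfrsf18 were highest in regulatory T cells, Icos in gamma-delta T cells with anti-PD-1 (603 CPM) and regulatory T cells with isotype (497 CPM), and Cd40lg in CD4 T cells and T cells without CD4 or CD8.

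Regulatory T cells had the highest level of 5 of the 7 genes, Icos and Cd40lg being the exceptions. Tnfrsf4 stood at 1330 and 1347 CPM in regulatory T cells, at 544 and 590 CPM in CD4 T cells and at 98.2 and 151 CPM in CD8 T cells. The ranges over the 2 libraries did not overlap between these 3 gates. In T cells without CD4 or CD8 it was 409 and 187 CPM, a wider gap between the libraries than in those 3 gates. Outside T cells only migratory dendritic cells (196 and 204 cells, the dendritic cells that carry antigen to lymph nodes) stood near the CD8 T level, at 76.6 and 103 CPM. NK cells held 0 and 4 Tnfrsf4 UMIs, the 4 in a single cell. A count of 0 among the 489522 UMIs of the anti-PD-1 NK cells allows a level of up to 6.13 CPM (3 UMIs).

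Tnfrsf18 followed the same order in the upper ranks. It measured 848 and 983 CPM in regulatory T cells, 365 and 505 CPM in CD4 T cells, 166 and 188 CPM in NK cells and 152 and 165 CPM in CD8 T cells. At least 1 Tnfrsf18 UMI was found in every compared gate of both libraries. The conventional dendritic cells of the cDC2 type had 40.7 and 40.1 CPM, those of the cDC1 type 27.1 and 25.1 CPM, and neutrophils 26.2 and 32.6 CPM. Tnfrsf18 overlaps the antisense gene Gm16008 on chromosome 4, and whether counting used strand is not stated in the labels used.

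Tnfrsf9 was found in T, NK, dendritic and other myeloid gates. Regulatory T cells held 1202 and 1474 CPM, and behind them 6 gates had overlapping neighbours in order: migratory dendritic cells at 462 and 462, CD4 T cells at 464 and 334, NK cells at 421 and 328, gamma-delta T cells at 219 and 492, T cells without CD4 or CD8 at 311 and 291, and CD8 T cells at 318 and 208 CPM. The level of migratory dendritic cells thus overlapped that of CD4 T cells, lay below that of regulatory T cells, and was nearly the same in both libraries (886 and 883 UMIs). Their summed T cell markers were 4.17 and 1.57 CPM, from 1 of 6 genes. The cDC2 cells measured 64.0 and 81.3 CPM, monocytes and macrophages 49.1 and 73.5 CPM, and neutrophils 18 and 17.8 CPM.

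Sequence before 2 annotated Tnfrsf9 starts and before the Cd27 start is shown to set a gene found in T, NK and myeloid cells beside one found mainly in lymphocytes. They come from RefSeq on GRCm38.p6, the patch release of the build named for the files (mm10). The Tnfrsf9 gene lies at chr4:150914562-150946102 on the plus strand in GENCODE vM21, with Camta1 on the opposite strand, and Cd27 at chr6:125232622-125237010 on the minus strand, with Vamp1 on the opposite strand. The 250 bases before the upstream Tnfrsf9 start (chr4:150919905-150920154, plus strand) and the 250 before the Cd27 start (chr6:125237028-125237277, minus strand) hold no GENCODE exon and are given 5′ to 3′ in lower case. The 30 bases shown before the downstream Tnfrsf9 start (chr4:150927947-150927976, plus strand) come from a 250-base window overlapping 1 GENCODE exon of Tnfrsf9. That exon starts at chr4:150927918, before the first of the 30 bases, so they are not shown as untranscribed sequence. The capitals in them mark 11 bases covered by 2 overlapping matches to the NF-kB motif.
Tnfrsf9, upstream start: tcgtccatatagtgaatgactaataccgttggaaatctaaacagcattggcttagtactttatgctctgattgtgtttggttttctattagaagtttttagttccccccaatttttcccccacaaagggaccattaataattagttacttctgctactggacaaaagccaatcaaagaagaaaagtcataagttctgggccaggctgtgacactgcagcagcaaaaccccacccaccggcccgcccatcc
Tnfrsf9, downstream start: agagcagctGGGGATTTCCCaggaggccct
Cd27: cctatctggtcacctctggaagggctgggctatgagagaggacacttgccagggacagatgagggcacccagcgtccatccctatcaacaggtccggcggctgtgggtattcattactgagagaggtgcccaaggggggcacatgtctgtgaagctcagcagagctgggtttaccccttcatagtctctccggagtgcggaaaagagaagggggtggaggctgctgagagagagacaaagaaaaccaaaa

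The motif matches, GGGGATTTCC and GGGATTTCCC, lie 43 to 33 bases before the downstream start, and a match to the AP-1 motif TGACTCA (read as TGAGTCA on this strand) lies 15 to 9 bases before it. Both strands were searched. Among 32851 windows of 250 bases before RefSeq starts, 3.9% held the NF-kB motif and 4.46% held TGACTCA. No match to either was found in the upstream Tnfrsf9 window or in the Cd27, Tnfrsf4 and Tnfrsf18 windows, which says only that these letters are not there. Of the 7 members, 4 had an entry in the promoter table. A match is a description of sequence and not of binding.

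Much of the Tnfrsf9 in this infiltrate lay outside T cells. T cells held 43.9% and 27.7% of its UMIs, monocytes and macrophages 30.4% and 41.9%, and dendritic cells 18.3% and 19.2%. For Tnfrsf18 the T cell share was 64.3% and 57.9%, with 14.5% and 15.6% in dendritic cells. Of Tnfrsf4, Icos, Cd28, Cd27 and Cd40lg, T cells held between 86.6% and 97.8%.

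**Figure D2:**
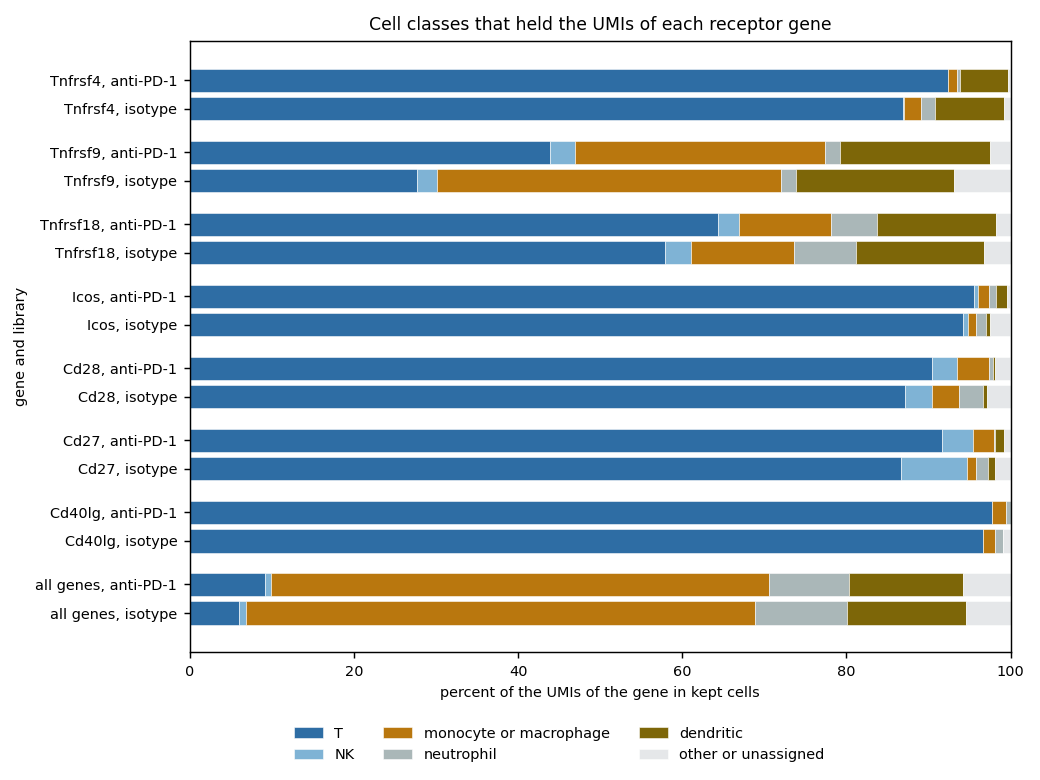
Percent of the UMIs of each gene in kept cells (horizontal axis, 0 to 100) that lay in each cell class, for both libraries, with all genes at the bottom for comparison. For Tnfrsf9 the T cell segment was 43.9% and 27.7% and the monocyte or macrophage segment 30.4% and 41.9%, while T cells held 97.8% and 96.6% of Cd40lg.

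The Tnfrsf9 counts of myeloid cells were uneven between and within gates. Of monocytes and macrophages 9.57% and 14.4% had a Tnfrsf9 UMI at median depths of 7888 and 8249 UMIs, whereas of cDC1 cells, at the greater depths of 20624 and 18330 UMIs, 1.06% and 4.0% did. After every cell was thinned to 1000 UMIs the shares were 3.95% and 5.67% in monocytes and macrophages, 0 of 94 and 0 of 74 cells in cDC1, and 0.485% and 0.604% in neutrophils (median depths before thinning 2043 and 1868 UMIs). Cells with at least 10 Tnfrsf9 UMIs were 0.923% and 1.61% of monocytes and macrophages, and they held 40.4% and 38.9% of that gate's Tnfrsf9 UMIs. Where macrophage markers led, the level was 98.4 and 138 CPM, and where classical monocyte markers led it was 23.4 and 39.6 CPM.

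Cd27 was a lymphocyte gene here. Its levels were 225 and 147 CPM in regulatory T cells, 120 and 140 CPM in CD8 T cells, 103 and 41.1 CPM in CD4 T cells and 63.3 and 55.6 CPM in NK cells. Gamma-delta T cells had 3 and 5 UMIs, and in dendritic and monocyte gates the level was at most 1.5 CPM in either library, plasmacytoid dendritic cells excepted (3.39 and 0 CPM, from 1 and 0 UMIs).

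Cd28, the receptor of primary costimulation, lay between 192 and 297 CPM in the CD4, CD8 and regulatory T gates and in T cells without CD4 or CD8. It was 242 and 297 CPM in regulatory T cells, 215 and 247 in CD4 T cells, 219 and 234 in T cells without CD4 or CD8, and 212 and 192 in CD8 T cells. Regulatory and CD4 T cells overlapped in their ranges over the libraries, and so did CD4 T cells and those without CD4 or CD8. NK cells stood lower at 91.9 and 61.3 CPM and gamma-delta T cells at 32.0 and 43.9 CPM. Migratory dendritic cells held 0 and 1 Cd28 UMIs. Cd28 and Icos lie on chromosome 1 with Ctla4 between them (204567 bases from the end of Cd28 to the start of Icos), and Icos overlaps the gene model Gm37039 on the same strand.

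Icos, its inducible relative, had its highest mean level over the libraries in gamma-delta T cells, at 603 and 452 CPM (113 and 103 UMIs in 32 and 46 cells). Their range overlapped that of regulatory T cells at 369 and 497 CPM. CD4 T cells had 359 and 296 CPM, CD8 T cells 133 and 93.0 CPM, and NK cells 16.3 and 15.3 CPM from 8 UMIs in each library. In gamma-delta T cells Icos was thus high where Cd28, Cd27 and Tnfrsf4 were near the low end of the T gates, Tnfrsf4 with 1 and 0 UMIs.

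Cd40lg, through which helper T cells license dendritic and B cells, was, of the 7 genes, the one with the largest share of its UMIs in T cells. It measured 60.9 and 144 CPM in CD4 T cells and 73.0 and 110 CPM in T cells without CD4 or CD8, but 8.51 and 3.93 CPM (5 and 2 UMIs) in regulatory T cells and 1.67 and 2.78 CPM (4 and 2 UMIs) in CD8 T cells. No UMI was found in gamma-delta T, NK, B or dendritic gates of either library. The low level in regulatory T cells stood against their high levels of the other 6 genes.

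Shares of cells gave the same picture. Unthinned, a Tnfrsf4 UMI was found in 98.6% and 94.7% of regulatory T cells and in 89.5% and 80.6% of CD4 T cells. After thinning to 1000 UMIs these became 64.3% and 71.9% and 37.8% and 37.9%, against 0.176% and 0.216% of neutrophils, which should lack the gene. Thinned to 2000 UMIs, regulatory T cells held a mean of 3.56 and 3.70 of the 7 genes per cell, CD4 T cells 2.45 and 2.46, CD8 T cells 1.45 and 1.42 and NK cells 1.05 and 0.925. At least 4 members were detected in 54.3% and 54.4% of regulatory T cells, 23.0% and 20.1% of CD4 T cells and 1.05% and 4.48% of CD8 T cells. Over 148 pairs of genes within a gate and library that had a value, the cells with both were a median of 1.02 times the product of the single shares. The interval lay above 1 for 2 pairs, both in NK cells of the anti-PD-1 library and from 2 and 5 cells (Icos and Cd28, each with Cd27), and below 1 for 1 pair. That pair was Tnfrsf9 with Cd28 in CD8 T cells of the anti-PD-1 library (10 cells, 18.7 expected, ratio 0.534, 95% interval 0.256 to 0.982).

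Across the 11 compared gates and both libraries (22 points that share depth within a library) the pairwise Pearson correlation of log2(CPM + 10) between members ran from 0.38 for Tnfrsf9 with Cd40lg to 0.96 for Cd28 with Cd27. Other genes were ranked by the same correlation if they reached 20 CPM in at least 1 gate. Gate markers and mitochondrial, ribosomal protein, receptor segment and unnamed genes were left out. Among those ranked, the genes most like each member, given as a description, were Dusp14, Slamf1 and Fam110a for Tnfrsf4 (r from 0.94 to 0.97), Mmd, Il2ra and Rhof for Tnfrsf9 (0.91 to 0.92), and Ppp1r16b, Sigirr and Tbc1d10c for Tnfrsf18 (0.94 to 0.95). They were Trib2, Inpp4b and Camk4 for Icos (0.98 to 0.99), Tnfsf10, Cd2 and Zap70 for Cd28 (0.99), Gimap7, Tigit and Slain1 for Cd27 (0.98) and Ly6g5b, Il17a and Nebl for Cd40lg (0.95 to 0.96).

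The libraries differed in a few members per gate, and not in 1 direction. A ratio was called past the fold where the log2 ratio of anti-PD-1 over isotype was at least 0.5 in size, among genes with at least 10 UMIs over both libraries. In CD4 T cells 1 of 7 members was higher and 1 lower, where 17.7% of all 9966 measured genes were higher and 10.4% lower. In regulatory T cells 1 of 6 measured members was higher and none lower (all genes 19.8% and 16.2%), and in CD8 T cells 2 of 6 were higher and 1 lower (20.6% and 11.6%). The members' median log2 ratios were −0.12, −0.25 and 0.01 in these gates, against 0.08, 0.06 and 0.10 over all genes. In T cells without CD4 or CD8, 2 of 7 members were higher and 1 lower (all genes 21.1% and 13.5%; medians 0.01 and 0.06), and in NK cells 1 of 5 was higher and none lower (22.2% and 12.9%; medians 0.19 and 0.09). Over these 5 gates 7 of 31 measured ratios were higher and 3 lower, which is close to the shares of all genes.

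**Figure D3:**
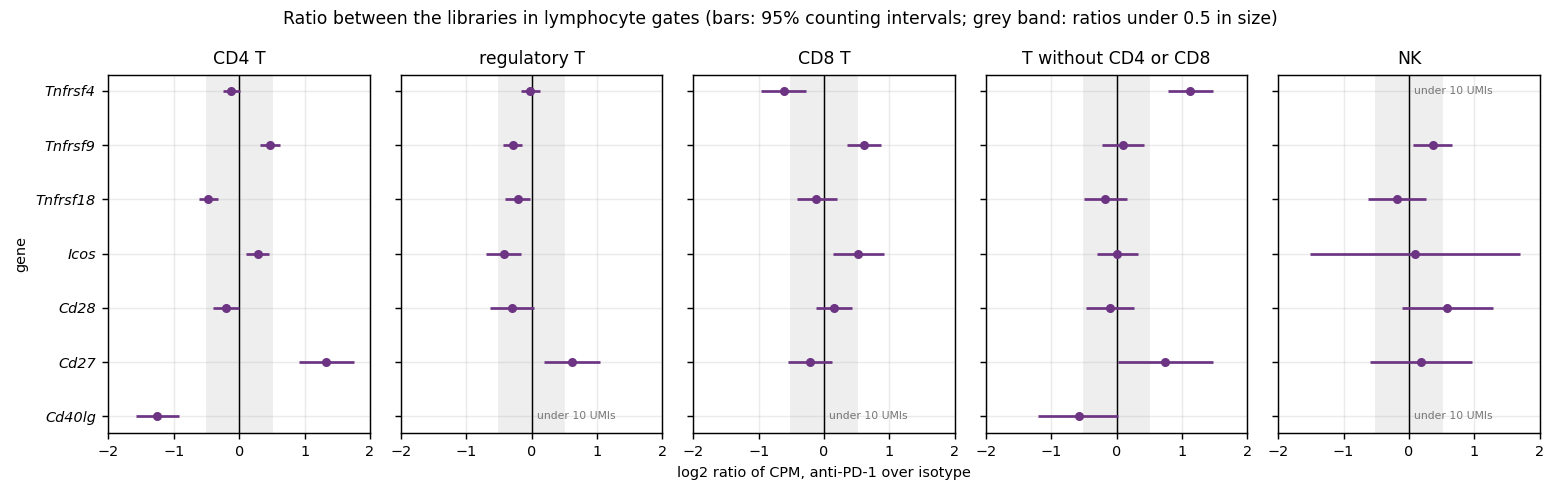
Log2 ratio of CPM, anti-PD-1 over isotype (horizontal axis), of the 7 genes (vertical axis) in 5 lymphocyte gates, with exact conditional 95% intervals for counting error; the grey band holds ratios under 0.5 in size, and members with under 10 UMIs are marked. In CD4 T cells Cd27 stood at 1.33 and Cd40lg at −1.25, and in CD8 T cells Tnfrsf9 at 0.61 and Tnfrsf4 at −0.62.

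Cd27 and Cd40lg had, in CD4 T cells, the most different levels. Cd27 was found in 207 UMIs (103 CPM) in the anti-PD-1 library and 63 UMIs (41.1 CPM) in the isotype library, a log2 ratio of 1.33 (95% counting interval 0.91 to 1.76). A Cd27 UMI was seen in 44.2% and 18.8% of these cells at median depths of 8860 and 6525 UMIs, and in 8.33% and 4.21% after thinning to 1000 UMIs, a difference of 4.12 percentage points whose interval (−0.916 to 9.49) included 0. Thinned to 2000 UMIs the shares were 13.5% and 6.88%, a difference of 6.6 points (0.39 to 13). In this gate 9.17% of the genes of 100 or more UMIs were higher by the same fold.

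Cd40lg differed in the other direction. It had 122 UMIs (60.9 CPM) in the anti-PD-1 and 221 UMIs (144 CPM) in the isotype library, a log2 ratio of −1.25 (−1.58 to −0.92), where 3.88% of the genes of 100 or more UMIs were lower. With each cell thinned to 1000 UMIs, which weights cells equally, the ratio was −0.37. The share of cells with a Cd40lg UMI differed by −2.6 points at 1000 UMIs (−9.26 to 4.12) and by −9.83 points at 2000 UMIs (−17.5 to −1.96). In T cells without CD4 or CD8 the ratio was −0.58 (−1.20 to 0.02, 38 and 64 UMIs), and 0.66 after thinning. Over all gated T cells it was −1.50 (28.3 and 80.0 CPM), in pools that held 194 and 68 CD8 T cells.

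Tnfrsf9 in CD4 T cells rested on a subset. In the whole gate it was 464 and 334 CPM, a log2 ratio of 0.47 (0.32 to 0.63). Without cells that held a UMI of Ikzf2, Ikzf4 or Lrrc32, genes of regulatory T cells, 118 and 130 cells remained and the level was 243.5 and 339.5 CPM, a ratio of −0.48. The ratio of Cd27 without those cells was 1.14, of Cd40lg −0.85 and of Tnfrsf18 −0.49 (−0.47 in the whole gate, interval −0.62 to −0.32). The isotype level of Tnfrsf9 was thus 334 CPM with and 339.5 CPM without those cells. The anti-PD-1 level was 464 CPM with and 243.5 CPM without them. No intervals were computed for the ratios without those cells. Ikzf2 stood at 63.1 and 90.2 CPM in CD8 T cells, near its 68.8 and 69.9 CPM in this gate. A UMI of it does not single out regulatory T cells, and deeper cells are likelier to hold one. Whether the cells left out were regulatory T cells was not tested.

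**Figure D4:**
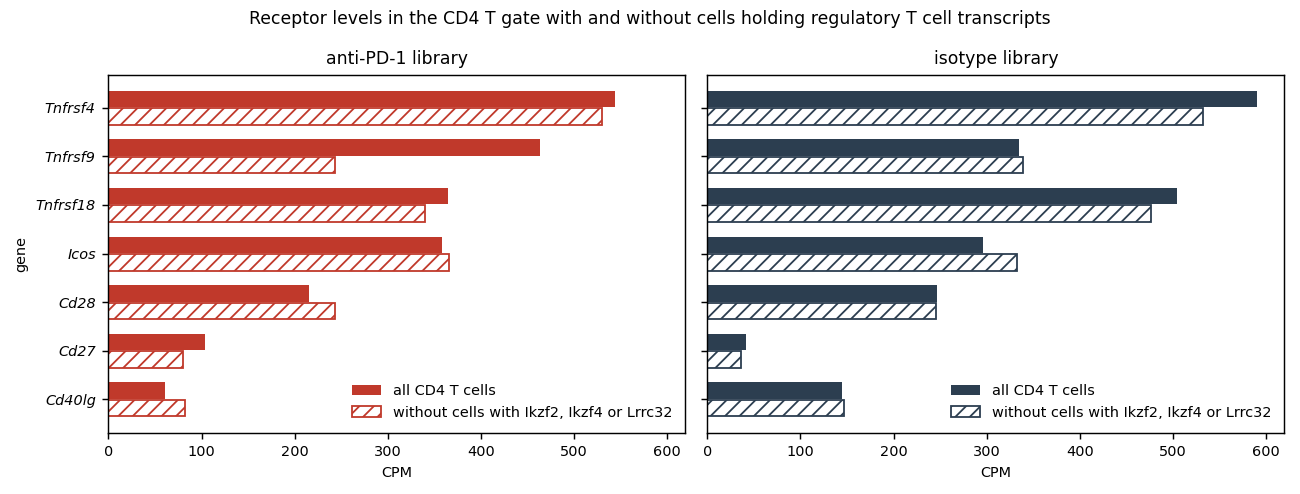
Level of the 7 genes in the CD4 T gate (CPM, horizontal axis from 0) in the anti-PD-1 (left) and isotype (right) libraries; filled bars are all CD4 T cells and hatched bars those without a UMI of Ikzf2, Ikzf4 or Lrrc32. Tnfrsf9 in the anti-PD-1 library stood at 464 CPM with those cells and 243.5 CPM without them, and at 334 and 339.5 CPM in the isotype library.

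The CD4 T gates also differed in transcripts of other cells. The 8 neutrophil markers summed to 504 and 79.7 CPM in them and the 7 macrophage markers to 181 and 32.6 CPM, with all 8 and 7 of 8, and 6 and 5 of 7, of the markers seen. NK markers were at 7.98 and 7.18 CPM. Neutrophils themselves held Cd27 at 0.149 and 0.699 CPM and Cd40lg at 0.149 and 0.420 CPM. The part of such transcripts in the ratios was not tested.

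In CD8 T cells Tnfrsf9 was 318 and 208 CPM (760 and 150 UMIs, ratio 0.61, 0.35 to 0.87) and Icos 133 and 93.0 CPM (319 and 67 UMIs, ratio 0.52, 0.14 to 0.92). Tnfrsf4 was 98.2 and 151 CPM (235 and 109 UMIs, ratio −0.62, −0.96 to −0.28). Of the genes of 100 or more UMIs in this gate 10.8% were higher and 3.94% lower. Cells in cycle made up 41.8% and 27.9% of this gate. Without them the Tnfrsf9 ratio was 0.34 (−0.09 to 0.79). Thinned to 1000 UMIs, with all cells of the gate, it was 1.27, from 26 of 194 and 6 of 67 cells with a UMI. The difference in share was 4.45 points (−5.66 to 11.7). The Icos ratio was 0.43 with TMM scaling, below the fold, and 1.44 thinned, where the shares differed by 8.57 points (−1.8 to 16.2). A single isotype cell held 25.7% of that library's Tnfrsf4 UMIs in the gate, and without that cell the Tnfrsf4 ratio was −0.23. Cd28 at 0.15, Cd27 at −0.22 and Tnfrsf18 at −0.12 had intervals that included 0. Macrophage markers summed to 200 and 41.6 CPM in this gate.

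In regulatory T cells the ratio of Tnfrsf4 was −0.02 (−0.17 to 0.13), of Tnfrsf18 −0.21 (−0.40 to −0.03) and of Tnfrsf9 −0.29 (−0.44 to −0.14). Icos was 369 and 497 CPM, a ratio of −0.43 (−0.70 to −0.16). Cd27 was the one member past the fold, at 0.61 (0.19 to 1.04), from 132 and 75 UMIs. Parts of this gate differed more. In the 10 and 15 cycling cells the Tnfrsf9 ratio was −1.08 (−1.44 to −0.73). The Tnfrsf4 ratio was −0.32 (−0.49 to −0.14) in cells with a transcript of Pdcd1, which encodes PD-1, and 0.38 (0.08 to 0.68) in the others. For Tnfrsf18 these were −0.56 (−0.78 to −0.34) and 0.38 (0.02 to 0.72). In T cells without CD4 or CD8 Cd27 stood at 0.74 (0.02 to 1.47), from 43 and 29 UMIs. Tnfrsf4 there had 213 and 109 UMIs (409 and 187 CPM) and a ratio of 1.13 (0.79 to 1.48), and 1 anti-PD-1 cell held 19.7% of the UMIs. Without that cell the ratio was 0.83. Ctla4, the inhibitory counterpart of Cd28 and abundant in regulatory T cells, was higher in the same gate by 0.79. The 5 regulatory T check genes (Il2ra, Ikzf2, Ikzf4, Lrrc32 and Ctla4 itself) summed to 836 and 580 CPM, which is thus not separate from the Ctla4 value. In NK cells Cd28 stood at 0.58 (−0.10 to 1.29) from 45 and 32 UMIs, and Tnfrsf9 at 0.36 (0.06 to 0.66).

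Among myeloid gates the Tnfrsf9 ratio was below 0 in monocytes and macrophages, non-classical monocytes and cDC2 cells, and not in neutrophils (0.02, −0.35 to 0.39), migratory dendritic cells or cDC1 cells. In monocytes and macrophages Tnfrsf9 had 2052 and 2920 UMIs and a ratio of −0.58 (−0.66 to −0.50), in a gate where 3 of 6 measured members were higher and 2 lower and 7.28% and 5.56% of all genes were (2.66% and 1.39% of those of 100 or more UMIs). The members' median there was 0.23. The Tnfrsf9 ratio was −0.49 where macrophage markers led and −0.76 where monocyte markers led. In the 463 and 421 cells where these markers tied the level was higher with anti-PD-1, at 90.1 and 71.8 CPM (322 and 254 UMIs). Of the whole gate's cells, the share with a Tnfrsf9 UMI differed by −4.8 percentage points without thinning (interval −6.1 to −3.5). The difference was −1.72 points (−2.59 to −0.864) thinned to 1000 UMIs and −2.71 (−3.76 to −1.67) thinned to 2000. The other 4 ratios past the fold there came from 21 to 55 UMIs in the anti-PD-1 library; Cd27 (21 and 4 UMIs, 2.32) and Cd28 (55 and 33 UMIs, 0.67) were higher, and the 6 T cell markers summed to 9.22 and 2.92 CPM beside them.

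Several other myeloid values rested on few UMIs or cells. In non-classical monocytes Tnfrsf9 had 11 and 48 UMIs (ratio −2.55, background 17.2% higher and 9.68% lower), and 2 cells held 91.7% of the isotype UMIs. In cDC2 cells Tnfrsf4 had 24 and 1 UMIs (4.65, interval 2.03 to 10.01), where 13.6% and 6.4% of genes were higher and lower. Without the 1 richest cell, of the anti-PD-1 library, the ratio was 1.07. T cell markers there summed to 14.3 and 1.44 CPM. In that gate 3 of 5 measured members were higher, with a median of 2.06, and Tnfrsf9 was at −0.35 (−0.55 to −0.14) from 341 and 452 UMIs. In neutrophils 2 of 5 measured members were lower (9.56% of genes higher, 11.1% lower): Tnfrsf4 at −1.81 (11 and 41 UMIs) and Cd28 at −1.77 (8 and 29 UMIs), beside T cell markers at 17.3 and 27.5 CPM. In cDC1 cells Tnfrsf9 had 9 and 3 UMIs (17.6% and 8.01% of genes). In migratory dendritic cells Tnfrsf9 was at 0.00 (−0.14 to 0.14), Tnfrsf18 at −0.30 and Tnfrsf4 at −0.42 (−0.74 to −0.10), with 1 of 4 measured members, Icos at 10 and 4 UMIs, past the fold (13% higher, 11.7% lower).

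Receptor levels differed between T cells with and without a transcript of Pdcd1. Pdcd1 itself was at 499 and 304 CPM in CD4 T cells, 308 and 136 CPM in regulatory T cells and 394 and 275 CPM in CD8 T cells. Of the CD4 T cells 135 of 181 and 119 of 191 held a Pdcd1 UMI, with median depths of 9946 and 7865 UMIs against 5612 and 4890 in the others. This split sorts cells by depth as well, so only CPM levels are given.

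Icos was lower in CD4 T cells where Pdcd1 was detected, at 295 and 207 CPM against 719 and 550 CPM in the other cells, log2 ratios of −1.29 (−1.52 to −1.05) and −1.41 (−1.68 to −1.14). Cd28 was lower likewise, at −0.67 and −0.71, and Cd40lg at −1.61 and −0.64. Tnfrsf9 was higher, at 516 and 376 CPM against 172 and 216 CPM (1.59, 1.19 to 2.02, and 0.80, 0.46 to 1.15). Cd27 was higher too, at 1.53 (0.70 to 2.51) and 0.90 (−0.09 to 2.04), while Tnfrsf4 differed by 0.23 and 0.07, with intervals that included 0. Both libraries had the same sign for all 7 genes.

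Among CD4 T cells with Pdcd1, Cd27 was 115 and 46.8 CPM (ratio between the libraries 1.29, 0.85 to 1.76) and Cd40lg 46.4 and 126 CPM (−1.44, −1.86 to −1.04). In the other CD4 T cells Cd27 had 12 and 10 UMIs (0.66, −0.68 to 2.02) and Cd40lg 43 and 78 UMIs (−0.47, −1.04 to 0.09), so neither interval excluded 0. Tnfrsf18 differed in both subsets, by −0.47 (−0.63 to −0.3) with Pdcd1 and −0.67 (−1.06 to −0.29) without, and so did Icos, by 0.51 (0.28 to 0.74) and 0.39 (0.11 to 0.66). The difference between the subsets was not tested.

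In CD8 T cells Tnfrsf4 and Tnfrsf9 were higher where Pdcd1 was detected. Tnfrsf4 was at 120 and 208 CPM in cells with Pdcd1 and at 14.3 and 68.3 CPM in the others, ratios of 3.06 (2.00 to 4.40) and 1.61 (0.89 to 2.39). Tnfrsf9 was at 363 and 330 CPM against 141 and 30.7 CPM, ratios of 1.36 (1.0 to 1.74) and 3.42 (2.46 to 4.58). Tnfrsf18 had ratios of 0.41 (0.0 to 0.84) and 0.96 (0.35 to 1.6), and Cd27 0.03 (−0.39 to 0.47) and 0.76 (0.12 to 1.44). Among CD8 T cells with Pdcd1 the libraries differed in Tnfrsf9 by 0.14 (−0.12 to 0.41). Of these cells there were 141 of 194 in the anti-PD-1 and 36 of 68 in the isotype library, and among the rest the difference was 2.20 (1.19 to 3.39, 69 and 9 UMIs). Cd28 in CD8 T cells differed by −0.09 and −0.42, both with intervals that included 0.

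**Figure D5:**
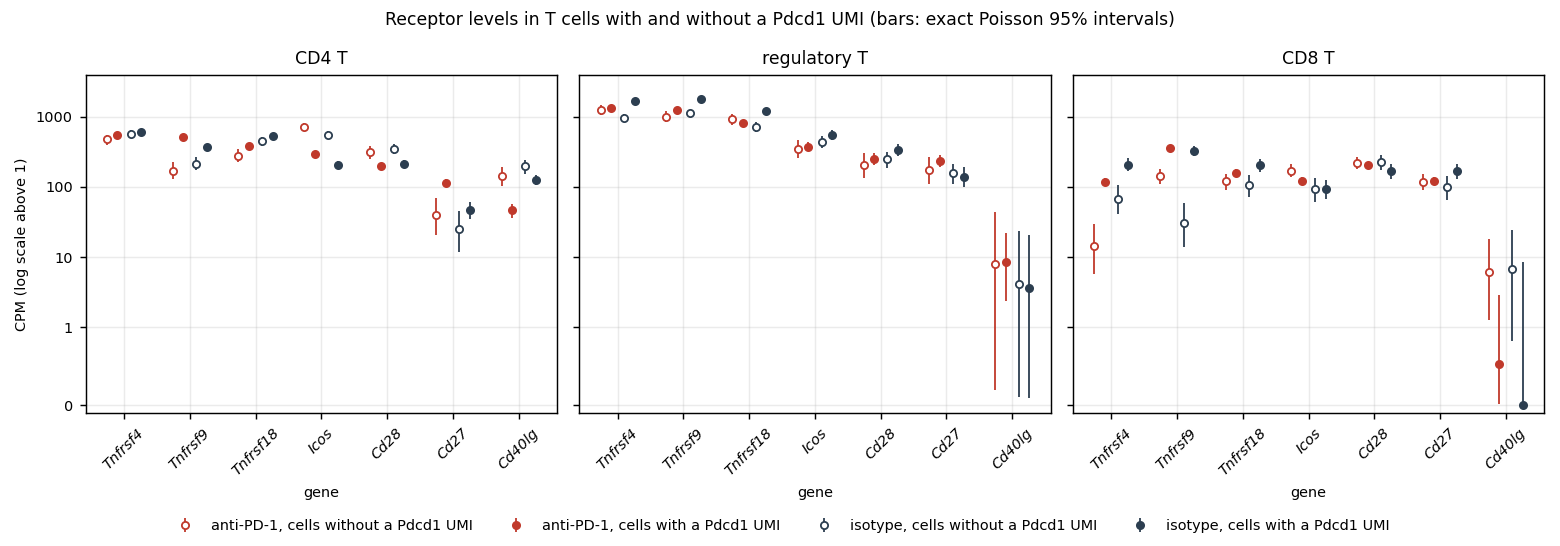
Level of the 7 genes (CPM, vertical axis, linear below 1 and logarithmic above) in CD4, regulatory and CD8 T cells; filled points are cells with a Pdcd1 UMI, open points those without, red the anti-PD-1 and dark the isotype library, and bars exact Poisson 95% intervals. In CD4 T cells Icos was higher without Pdcd1 (719 and 550 CPM) than with it (295 and 207 CPM), and Tnfrsf9 the reverse.

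In the CD4 T gate 5 members, Tnfrsf4, Tnfrsf9, Tnfrsf18, Icos and Cd28, were lower in cycling cells of both libraries with intervals below 0. In the CD8 T gate Cd28 and Cd27 were lower and Tnfrsf4 and Tnfrsf9 higher in both. Tnfrsf9 in CD4 T cells was at 237 and 195 CPM in cycling cells and 609 and 398 CPM in the others (ratios −1.36, −1.60 to −1.13, and −1.03, −1.37 to −0.70). In CD8 T cells it was at 386 and 249 CPM in cycling cells and 209 and 165 CPM in the others (0.89, 0.65 to 1.13, and 0.59, 0.11 to 1.09), and Tnfrsf4 was higher there as well, at 0.72 and 0.89. Icos in CD8 T cells went the other way, at −1.53 (−1.88 to −1.19) and −0.46 (−1.21 to 0.27). Cd40lg in CD4 T cells was at 20.5 CPM in cycling and 86.6 CPM in other cells of the anti-PD-1 library, and at 143 and 145 CPM in the isotype library. The cycling cells were 39 and 35 in the CD4 T gate and 81 and 19 in the CD8 T gate, with median depths from 12542 to 17961 UMIs.

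Most ligands of these receptors were highest in migratory dendritic cells. Tnfsf9, the ligand of CD137, measured 409 and 349 CPM there, 126 and 131 CPM in cDC2 cells and 121 and 103 CPM in monocytes and macrophages, so in migratory dendritic cells receptor and ligand transcripts were present in the same gate. Cd80 (272 and 283 CPM) and Cd86 (229 and 218 CPM), which bind CD28, were also highest there, as were Cd40 at 213 and 186 CPM and Icosl at 77.2 and 69.0 CPM. Tnfsf4, the OX40 ligand, was at 73.0 and 64.9 CPM in migratory dendritic cells. In CD4 T cells it was at 24.9 and 70.5 CPM (ratio −1.50, −2.01 to −1.0).

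Of the 51 genes of the costimulation pathway (8 ligands, 9 related receptors, 28 signalling genes and 6 output genes), 48 were measured in CD4 T cells. Of these 4 were higher and 9 lower (all genes 17.7% and 10.4%), with a median of −0.11 against 0.08 over all genes. Among the output genes Il2, the growth factor that CD28 signals induce, had 4 and 21 UMIs (−2.78, −4.78 to −1.21). In regulatory T cells 3 of 43 were higher and 7 lower (all genes 19.8% and 16.2%). There 4 of 5 measured output genes were lower, among them Il2ra, the high-affinity IL-2 receptor chain (230 and 393 CPM, −0.77, −1.1 to −0.45). The gate had 14.3% and 26.3% cycling cells. In CD8 T cells 7 of 47 were higher and 3 lower (20.6% and 11.6%), and Il2ra was at 59.7 and 36.1 CPM (0.73, 0.12 to 1.39). In T cells without CD4 or CD8 5 of 45 were higher and 4 lower (21.1% and 13.5%), and in NK cells 5 of 41 and 7 (22.2% and 12.9%). In each of these 5 gates the share of higher genes was below that of all genes with at least 10 UMIs. The share of lower genes was above that of these genes in CD4 T and NK cells, about equal to it in regulatory T cells and below it in the other 2 gates. This order depends on the minimum: in CD8 T cells both shares were above those of genes of 100 or more UMIs (10.8% higher and 3.94% lower), a minimum not asked of the list.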

How the data were processed

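Sorted CD45+ cells, 1 library per antibody, were analysed as the filtered matrices of raw UMI counts that the authors deposited, 1 count per gene and cell. Cell Ranger 2.1.1 and the mm10 build are named in the submitters' processing notes, but per the file headers Cell Ranger 5.0.1 wrote the matrices.

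Cells were kept from 500 UMIs and 200 genes upward if mitochondrial UMIs did not exceed 10%. Doublets were scored within each library with Scrublet in scanpy 1.11.5. Its automatic threshold marked 2 and 0 cells and was taken as not having worked, so cells scoring above 0.25 (295 and 303) were removed, a limit chosen after the scores were seen. Cells were assigned to the type with the highest share of its markers detected (at least 2 markers, ties unassigned), and T cells were split by Cd4, Cd8a, Cd8b1, Foxp3 and gamma-delta transcripts. Levels are summed UMIs normalised to the same gate total (CPM) with exact Poisson 95% intervals. Library ratios carry exact conditional 95% intervals and were compared only for gates with at least 50 cells in each library and genes with at least 10 UMIs. All intervals and limits cover counting error only. With 1 library per antibody no test between antibodies was made. Shares of cells were recomputed after thinning each cell to 1000 or 2000 UMIs, leaving out shallower cells.

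Alternatives were TMM scaling (edgeR 4.0.16, R 4.3.3), mean CPM over cells, thinning, other filters, no doublet removal, stricter gates, and leaving out cycling cells or the richest cell. The ratio calculation was run on simulated Poisson counts, the model its intervals assume. That run checks the arithmetic only and leaves out the clustering of UMIs in single cells. All members are named, and beyond them the 3 genes most correlated with each member over 11 gates and any gene of the pathway list. The members, gene lists and markers were chosen with earlier results of these data known; the splits by Pdcd1 and cycling, and the set of CD4 T cells without Ikzf2, Ikzf4 or Lrrc32, were chosen after the data were seen. Software was Python 3.11.15 with numpy 2.4.6, scipy 1.17.1, pandas 2.3.3, anndata 0.12.19 and matplotlib 3.10.9. Genes were placed with GENCODE vM21.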

Additional observations from a re-analysis of the deposited data

Results flagged for a closer look

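For 3 genes the library ratio (log2, anti-PD-1 over isotype) was at least 0.5 in size with opposite signs in different gates, each with a counting interval clear of 0. None of these differences between gates was tested, since each gate has 1 library per antibody. Tnfrsf4 was at −0.62 in CD8 T cells and −1.81 in neutrophils, and at 1.13 in T cells without CD4 or CD8 and 4.65 in cDC2 cells. Without the richest cell it was −0.23 in CD8 T cells, 0.83 in T cells without CD4 or CD8 and 1.07 in cDC2 cells. With no doublet removal it was 0.32 in neutrophils. Tnfrsf9 was at 0.61 in CD8 T cells (0.34 without cycling cells), and at −0.58 in monocytes and macrophages. In non-classical monocytes it was at −2.55, where 2 cells held 91.7% of the isotype UMIs. Cd28 was at −1.77 in neutrophils and 0.67 in monocytes and macrophages, from at most 55 UMIs in any of the 4 values. Icos also had opposite signs with intervals clear of 0, at 0.52 in CD8 T cells and −0.43 in regulatory T cells, the latter below that size.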

How the results depend on the processing

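No paired analysis was possible because each antibody has 1 library and both carry only replicate number 1, so no replicate could be left out either. Of the alternative values for single member ratios, 485 lay within the counting interval of the reported value, 39 lay outside it and 7 changed the sign of a ratio past the fold. Among the first 2 sets are 31 values, for 16 ratios within the fold, that also changed sign, 9 of them outside the interval. Among the members' median ratios, thinning to 1000 UMIs gave 0.33 in CD8 T cells (reported 0.01), 0.51 in T cells without CD4 or CD8 and 0.08 in migratory dendritic cells. A minimum of 1 UMI per gene gave −1.49 in neutrophils, −0.21 in monocytes and macrophages and 0.66 in migratory dendritic cells. The mean CPM over cells gave −0.47 in monocytes and macrophages (reported 0.23), and asking for 1 more marker gave −0.08 in cDC2 cells (reported 2.06). The 7 reversed ratios past the fold were Cd40lg in T cells without CD4 or CD8 at 0.66 (thinned), Tnfrsf4 in neutrophils at 0.32 and in monocytes and macrophages at 0.04 (no doublet removal), and Tnfrsf4 in monocytes and macrophages at 0.24 and Tnfrsf9 in cDC1 cells at −0.45 (without the richest cell). The mean CPM over cells reversed Icos (−0.87) and Cd28 (−0.40) in monocytes and macrophages. The share of CD4 T cells with a Tnfrsf18 UMI differed by −9.59 points thinned to 1000 UMIs and by 2.39 without thinning. The cause of these changes was not tested. TMM scaling shifted all ratios by −0.11 to −0.03, and the percent of calls that were higher went from 56.7 to 46.0 in monocytes and macrophages, 68.7 to 55.5 in cDC1 cells and 68.0 to 52.5 in cDC2 cells.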

Other observations

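Akt1, which encodes a kinase downstream of CD28 and ICOS, had a ratio above 0 in all 11 compared gates, from 0.30 to 0.98 with a median of 0.55, and was past the fold in 8. In CD8 T cells it was at 147.5 and 74.9 CPM. Of the pathway list, Nfkb1 (0.13 to 0.75) and Relb (0.09 to 0.45) were also above 0 in all 11 gates. The median over all genes ran from 0.03 in neutrophils to 0.12 in cDC2 cells. What the Akt1 ratios go with was not tested. Cd70, the ligand of CD27, was at 52.4 and 58.1 CPM in CD4 T cells and 53.2 and 42.9 CPM in migratory dendritic cells. CD8 T cells had 23.8 and 13.9 CPM and T cells with both CD4 and CD8 transcripts 14.1 and 54.1 CPM. NK cells held 0 and 19 Cd70 UMIs (0 and 36.4 CPM).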
